A study of Mus musculus with 8 samples.

Results

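Cells of the blood lineage build their actin cytoskeleton with their own version of many proteins that other cells make from a sister gene. The set described here holds 18 such pairs of sister genes (paralogues), 36 genes of the 45706 in the deposited gene tables, each pair listed as a leukocyte paralogue and then a broadly expressed one. The members were taken by gene name, with no threshold on a measured value but with earlier results of these data known. All 36 were found. They were measured by RNA sequencing of natural killer (NK) cells, the innate lymphocytes that kill cells lacking class I molecules of the major histocompatibility complex. The animals were BALB/c mice bearing CT26_β2m-/- tumours under the skin, which are CT26 colon carcinoma cells that lack β2-microglobulin, a chain of those class I molecules. By the sample titles, 4 tuNK libraries were made from NK cells of the tumours and 4 spNK libraries from NK cells of the spleen. All 8 libraries came from mice that carried this tumour, and no tumour-free mouse was analysed here. The age and sex of the mice, the sort markers and whether each library came from 1 animal are not given, so a p-value here covers only the spread among these libraries, which may be technical.

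Small GTPases such as RAC1 and RAC2 act as switches: exchange factors load them with GTP, carrier proteins hold them in the cytosol, and effectors pass the signal to actin. Downstream, WASP and the WAVE complex turn on the Arp2/3 complex to branch filaments, formins and Ena/VASP proteins elongate them, and plastins, coronins, ezrin-type linkers and class I myosins bundle them or tie them to the membrane. At integrins, talins and kindlins switch the receptor on and parvins join it to actin. In NK cells this machinery builds the contact with a target cell through which lytic granules are released.

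The titles give the groups, but other labels of all 8 samples say the opposite: the tissue and source fields read tumour for the spNK titles and spleen for the tuNK titles. Groups follow the titles, so the direction of every difference rests on that reading, while the division into groups does not. The columns of the deposited gene tables are named SPNK and TUNK, as in the titles. Library totals were 38745733 to 53886933 estimated counts, and a principal component with 86.8% of the variance set the groups apart. All 10 NK markers were present in every library and lower in tuNK under TMM scaling, while 3 were lower and 2 higher after the leukocyte scaling described with the members. Their summed level was 4121 to 5819 TPM (a transcript level corrected for length and library size) in tuNK, against 14637 to 22048 TPM in spNK. The 12 mesenchymal markers were all higher in tuNK. They summed to 705 to 1221 TPM in tuNK, highest in tuNK library 1, against 3.43 to 12.1 TPM in spNK, where the defining marker Lum was at 0 in all 4 libraries. In tuNK the smooth muscle and myofibroblast markers Tagln and Acta2 averaged 0.93 and 0.76 TPM. Erythroid markers summed to 1.10 to 4.49 TPM in tuNK and 337 to 1506 TPM in spNK. Which set of labels is right was not tested. In bulk samples fewer cells of a type and less RNA per cell cannot be told apart, and the part of these other cells in the results for the pairs was not tested.

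All 18 leukocyte paralogues fell in tuNK under TMM scaling, against a background of 34.0% of all 14006 genes tested, by a median of 1.61 on the log2 scale, but 0 fell and 8 rose when libraries were scaled to 26 other leukocyte genes. That leukocyte scaling called 4.83% of all genes tested lower and 81.1% higher. Their log2 fold changes ran from -2.23 for Rhoh to -0.88 for Parvg (edgeR quasi-likelihood test, adjusted p under 0.05 over all genes). Of the 18 broad paralogues 13 rose, where 35.6% of all genes tested rose, 3 fell (Elmo2, Vasp and Wipf2), and the test called neither Rhoa nor Ezr. Among the 13 that rose, Dock1, Fermt2, Parva and Tln2 passed the filter on low counts only through tuNK. With leukocyte scaling all 18 broad paralogues rose, beside the 81.1% of all genes that did. Together 34 of the 36 members were called in either direction under TMM, beside 69.6% of all genes tested. Under TMM the leukocyte member fell and the broad member rose in 13 pairs, and in 3 pairs both fell. The share of all pairs of genes with either pattern was not computed. With leukocyte scaling no pair had either pattern, as 0 leukocyte members fell. As a group the leukocyte paralogues summed to 1311 to 1707 TPM in tuNK, against 4333 to 5249 TPM in spNK. The broad paralogues summed to 1648 to 1896 TPM in tuNK, against 1572 to 1854 TPM in spNK, so these sums overlapped. Under TMM the log2 fold changes of the leukocyte members had an SD of 0.41 and those of the 26 leukocyte genes a median of -1.85, which 8 members exceeded by enough to be called higher with leukocyte scaling, up to 1.06 for Parvg. The broad members spread over a far wider range.

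**Figure D1:**
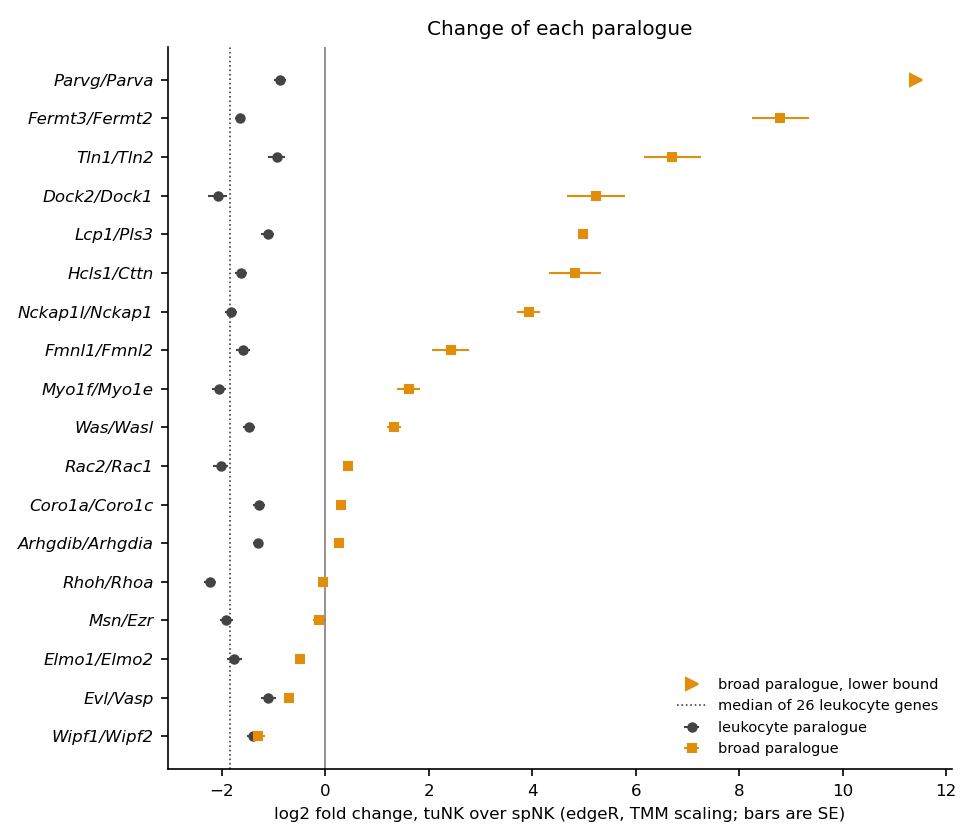
Log2 fold change of each paralogue, tuNK over spNK, with SE bars, for the 18 pairs in order of the broad member (circles, leukocyte; squares, broad; triangle, lower bound for Parva). Under the TMM scaling drawn here every leukocyte member lies left of 0, on either side of the dotted median of 26 other leukocyte genes (-1.85), where scaling to those genes would leave 0 fallen members; the broad members spread to both sides.

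The ratio of the paralogues within a library uses no scaling between libraries, and it was lower in tuNK with no overlap between groups in 16 of 18 pairs. Over all pairs of tested genes 62.8% of ratios did not overlap, and taken in a given order 31.4% were lower in tuNK. Without spNK library 3 and tuNK library 1 the count of pairs was also 16, where 71.0% of all pairs of genes did not overlap. Ratios are log2 of leukocyte over broad TPM with 0.1 added to each, and each pair was tested once by exact permutation (two-sided, all 70 assignments of the libraries) without adjustment over pairs. The smallest p this design allows is 0.0286, and all 16 pairs reached it. The pairs were chosen with earlier results of these data known, so these p-values are descriptive. Dock1, Fermt2, Parva and Tln2 passed the filter on low counts only through tuNK, so a rise of the broad member was fixed in advance in their pairs. The median difference over the 18 pairs was -3.26 on the log2 scale. For single pairs the difference in log2 ratio is given ± SE of the difference between group means. The leukocyte member's share of its pair, averaged over the 18 pairs, was 56.5, 61.8, 56.7 and 60.6% in the tuNK libraries, against 80.5, 80.7, 79.8 and 80.3% in the spNK libraries. The leukocyte member made up more than 50% of its pair in every spNK library for 15 pairs and in every tuNK library for 10. Rhoh, Elmo1 and Evl were below their broad partners in all 8 libraries, so for these the broad member was the main one in the libraries of both groups.

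**Figure D2:**
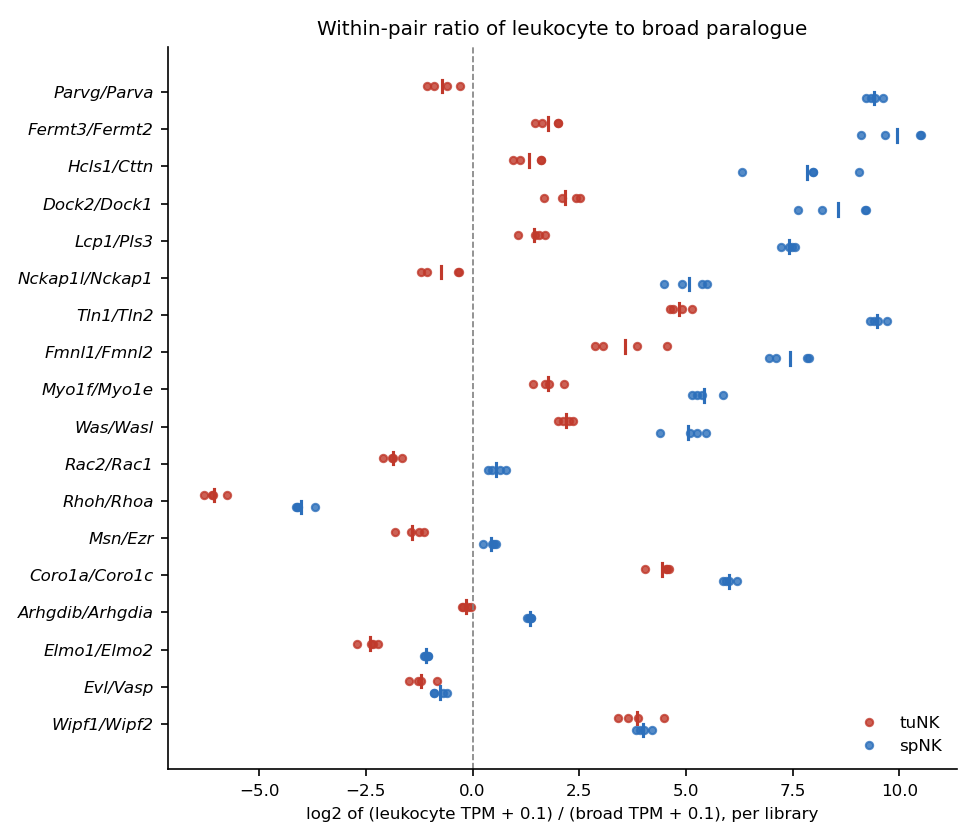
Log2 ratio of leukocyte over broad paralogue in each library (points; vertical strokes are means of 4) for 18 pairs, tuNK in red above spNK in blue, ordered by the difference. The ratio is lower in tuNK without overlap in 16 pairs, by up to 10.1 for Parvg/Parva, while Wipf1/Wipf2 and Evl/Vasp overlap.

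The level in spNK separated the broad members that rose steeply from the rest. The 10 broad members under 5 TPM in spNK (mean at most 3.01 TPM) had log2 fold changes of 1.33 or more, and the 8 above that line (at least 6.41 TPM) had log2 fold changes of -1.30 to 0.44. Among the 10, Dock1, Fermt2, Parva and Tln2 passed the filter on low counts only through tuNK, so a rise in these was fixed in advance. Since the spNK level enters both quantities this is a description, with no test.

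Upstream sequences are shown for the pairs with the largest falls in ratio for which RefSeq gives both, because broadly expressed genes often start in stretches rich in CpG and genes of 1 lineage often do not. Of the 36 members 29 matched the RefSeq table; Rac2, Rac1, Nckap1l, Nckap1, Cttn, Parva and Tln2 did not. Each sequence is the 250 bases before the gene's 5′-most RefSeq start in GRCm38.p6, on the gene's strand, 5′ to 3′, with CpG dinucleotides in capitals. The kindlin pair lies at chr19:7019470-7019719 (Fermt3, minus strand) and chr14:45530066-45530315 (Fermt2, minus strand). The DOCK pair lies at chr11:34783906-34784155 (Dock2, minus strand) and chr7:134670437-134670686 (Dock1, plus strand). The plastin pair lies at chr14:75130873-75131122 (Lcp1, plus strand) and chrX:75875183-75875432 (Pls3, minus strand).
Fermt3: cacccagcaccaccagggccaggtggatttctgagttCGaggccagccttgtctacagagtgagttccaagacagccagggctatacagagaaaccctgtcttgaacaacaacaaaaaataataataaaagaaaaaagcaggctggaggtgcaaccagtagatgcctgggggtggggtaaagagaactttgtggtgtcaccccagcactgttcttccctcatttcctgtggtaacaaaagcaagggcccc
Fermt2: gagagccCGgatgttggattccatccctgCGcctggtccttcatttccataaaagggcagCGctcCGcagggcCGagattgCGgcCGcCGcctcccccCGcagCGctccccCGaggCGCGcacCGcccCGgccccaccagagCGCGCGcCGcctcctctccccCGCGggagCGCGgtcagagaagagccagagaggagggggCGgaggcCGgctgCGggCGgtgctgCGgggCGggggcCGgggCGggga
Dock2: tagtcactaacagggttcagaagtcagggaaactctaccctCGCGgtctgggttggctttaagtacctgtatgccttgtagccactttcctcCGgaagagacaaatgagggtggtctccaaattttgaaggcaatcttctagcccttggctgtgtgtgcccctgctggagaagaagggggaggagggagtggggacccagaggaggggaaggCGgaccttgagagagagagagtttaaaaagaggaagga
Dock1: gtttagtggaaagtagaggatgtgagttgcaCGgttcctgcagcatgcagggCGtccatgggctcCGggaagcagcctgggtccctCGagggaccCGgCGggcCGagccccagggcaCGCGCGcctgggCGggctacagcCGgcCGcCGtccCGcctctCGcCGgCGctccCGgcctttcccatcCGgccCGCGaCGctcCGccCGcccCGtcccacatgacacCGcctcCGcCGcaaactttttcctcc
Lcp1: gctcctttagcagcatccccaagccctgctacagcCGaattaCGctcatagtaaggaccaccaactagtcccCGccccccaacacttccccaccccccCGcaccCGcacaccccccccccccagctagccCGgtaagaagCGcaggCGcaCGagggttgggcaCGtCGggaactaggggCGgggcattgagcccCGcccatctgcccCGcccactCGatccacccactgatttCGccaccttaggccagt
Pls3: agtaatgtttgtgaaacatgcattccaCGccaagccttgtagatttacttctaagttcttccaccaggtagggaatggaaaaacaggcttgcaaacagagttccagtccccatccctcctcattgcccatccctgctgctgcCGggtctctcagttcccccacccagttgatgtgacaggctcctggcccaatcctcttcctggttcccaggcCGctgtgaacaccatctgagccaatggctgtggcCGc
Fermt3 had 1 CpG and Fermt2 31, and Dock2 had 4 and Dock1 29. The plastins ran the other way, with 16 for Lcp1 and 4 for Pls3.

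Over the 13 pairs with both sequences the leukocyte member had fewer CpG in 9 and more in 4. The median number was 9 for 16 leukocyte members and 28 for 13 broad members, beside 6 for all 27025 promoters of the table and 16 for 9845 genes tested. Besides the plastins, the exceptions were Elmo1 with 21 against 16 for Elmo2, Wipf1 with 29 against 21 for Wipf2, and Evl with 16 against 12 for Vasp. These last are the pairs with the smallest differences in ratio of all 18, and in each the broad member fell, though it rose when scaled to leukocyte genes. Yet the widest gap in CpG among the 13 pairs, 2 for Arhgdib against 33 for Arhgdia, came with the next smallest difference, -1.49. The ETS core GGAAGT, searched on both strands, was in 7 of 16 leukocyte (43.8%) and 2 of 13 broad (15.4%) sequences, 19.9% of all promoters and 23.9% of those of genes tested. The Sp1 box GGGCGG was in 8 of 16 leukocyte and 9 of 13 broad sequences (69.2% of the broad ones), 33.0% of all promoters and 59.0% of those of genes tested. A match is a description of letters and not of binding. The sequences of Coro1a, Rhoh and Parvg lie inside the annotated span of the gene, and some others overlap it in part. Which start these cells use was not tested.

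**Figure D3:**
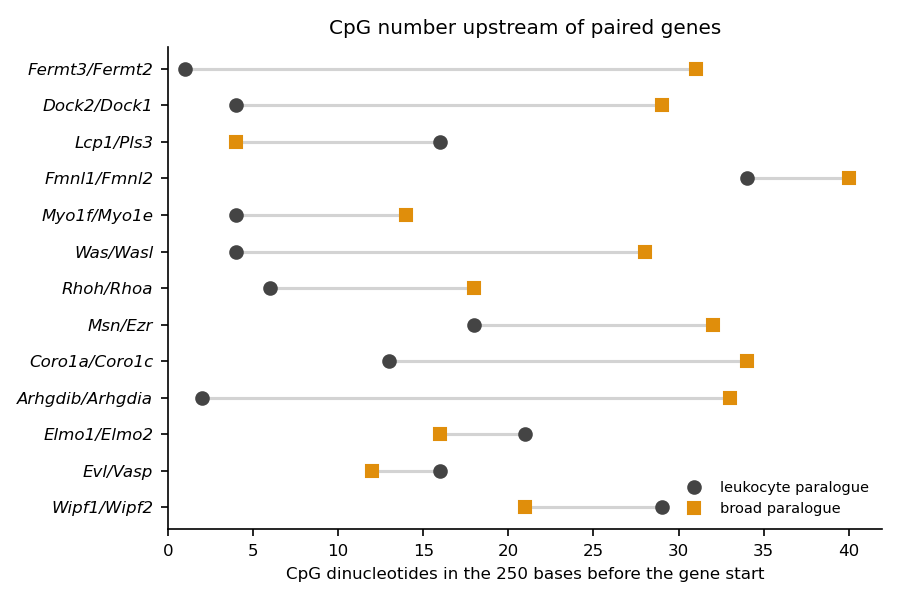
Number of CpG dinucleotides in the 250 bases before the 5′-most RefSeq start of the leukocyte (circles) and broad (squares) member of 13 pairs, ordered from the largest fall in ratio at the top to the smallest at the bottom. The leukocyte member has fewer CpG in 9 pairs; the 3 pairs at the bottom and Lcp1/Pls3 run the other way.

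Among the small GTPases, Rac2, the blood-cell Rac that drives protrusion and granule release (GRCm38 chromosome 15, 78559167 to 78572783), changed places with Rac1, the Rac of most cells (chromosome 5, 143503634 to 143528036). Rac2 was at 94.4, 114, 84.9 and 103 TPM in tuNK, against 558, 533, 393 and 441 TPM in spNK. Every tuNK library was below every spNK library. Rac1 was at 348, 360, 363 and 375 TPM in tuNK, against 326, 343, 287 and 343 TPM in spNK, a narrow separation with tuNK higher. The log2 fold change of Rac2 was -2.03 ± 0.14 (SE; edgeR adjusted p = 4.76e-07) and that of Rac1 0.44 ± 0.09 (edgeR adjusted p = 0.00132). With leukocyte scaling Rac2 had -0.08 and did not pass the test. The Rac1 call was lost on log2 TPM, where limma gave 0.16. The Rac2 share of the pair was 21.5 ± 2.12% in tuNK and 59.5 ± 3.06% in spNK (SD, n = 4 each), and the log2 ratio fell by 2.43 ± 0.13 (SE; exact permutation p = 0.0286).

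RHOH is a relative of these switches in blood cells, without GTPase activity, that takes part in antigen receptor signalling, and RHOA drives contraction through its kinases. Rhoh was at 5.62, 5.597, 7.70 and 5.50 TPM in tuNK, against 29.8, 29.7, 24.9 and 35.8 TPM in spNK, with no overlap. The third tuNK library's higher TPM is not in its estimated counts, which were 429, 566, 475 and 517 in tuNK. Rhoa was far more abundant, at 381 to 448 TPM in tuNK and 435 to 528 TPM in spNK, and the groups overlapped. It was not called by edgeR under TMM (adjusted p = 0.589), was called lower with library size alone (log2 fold change -0.22, edgeR adjusted p = 0.0232) and rose with leukocyte scaling (1.93). Rhoh had a log2 fold change of -2.23 ± 0.12 under TMM, and was not called with leukocyte scaling (-0.27). Rhoh made up 1.47 ± 0.23% of the pair in tuNK and 5.86 ± 0.85% in spNK (SD, n = 4 each).

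The carriers that hold these GTPases in the cytosol, Arhgdib in blood cells and Arhgdia in most cells, also changed order. Arhgdib was at 381, 391, 350 and 367 TPM in tuNK, against 1169, 1107, 941 and 982 TPM in spNK, and Arhgdia at 394 to 445 TPM in tuNK and 374 to 450 TPM in spNK. Only Arhgdib was apart on this scale. Arhgdib had a log2 fold change of -1.30 ± 0.09, which turned to 0.67 with leukocyte scaling. Arhgdia was called slightly higher (0.26 ± 0.08, edgeR adjusted p = 0.0181). That call was lost with library size alone (0.09), upper quartile scaling (0.21), on log2 TPM, and without tuNK library 3 (0.21), spNK library 3 (0.21) or spNK library 4 (0.23). The Arhgdib share was 47.3 ± 1.72% in tuNK and 71.7 ± 0.59% in spNK (SD, n = 4 each), a fall of 1.49 ± 0.05 (SE) in the log2 ratio.

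The activators of Rac showed both a large and a small fall. DOCK2 (chromosome 11, 34226815 to 34783892) is the exchange factor that leukocytes use for migration, and DOCK1 (chromosome 7, 134670654 to 135173639) its counterpart elsewhere. Dock2 was at 17.5, 15.3, 8.26 and 12.3 TPM in tuNK, against 73.0, 75.6, 53.8 and 64.5 TPM in spNK. Dock1 was at 4.04, 2.59, 2.51 and 2.22 TPM in tuNK, against 0.02, 0.03, 0.17 and 0.12 TPM in spNK. Both genes separated the groups in TPM without overlap, in opposite directions. Dock2 had a log2 fold change of -2.08 ± 0.18 under TMM, and was not called with leukocyte scaling (-0.15). Dock1 passed the filter on low counts only through tuNK, and its log2 fold change of 5.23 ± 0.56 became 5.84 without spNK library 3. Dock2 kept most of the pair in tuNK, with a share of 82.0 ± 4.00% in tuNK and 99.9 ± 0.14% in spNK (SD, n = 4 each). The log2 ratio of the DOCK pair fell by 6.38 ± 0.44, and the difference was -4.08 with 1 TPM added, -7.56 with 0.01 TPM added and -7.42 on CPM (a count scaled to the library's size). In the upstream sequences printed with the promoters, Dock2 is the CpG-poor and Dock1 the CpG-rich member.

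ELMO proteins bind DOCK proteins and help them reach the membrane. Elmo1 was at 5.25 to 7.41 TPM in tuNK and 21.5 to 26.3 TPM in spNK, and Elmo2 at 27.6 to 36.2 TPM in tuNK and 47.3 to 57.3 TPM in spNK. Both fell without overlap under TMM (Elmo1 -1.76 ± 0.14, Elmo2 -0.48 ± 0.09), while leukocyte scaling gave 0.18 and 1.47. Their log2 ratio fell by 1.33 ± 0.11.

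Of the nucleation factors the WAVE subunits changed order. HEM1 (Nckap1l, chromosome 15, 103453794 to 103498810) is the blood-cell form of NAP1 (Nckap1, chromosome 2, 80500512 to 80581380), a scaffold of the WAVE complex that Rac turns on. Nckap1l was at 21.2, 25.1, 16.2 and 21.2 TPM in tuNK, against 93.4, 91.5, 79.6 and 87.4 TPM in spNK. Nckap1 was at 44.6, 31.3, 37.9 and 26.7 TPM in tuNK, against 1.98, 2.12, 3.47 and 2.84 TPM in spNK. Nckap1 exceeded Nckap1l in every tuNK library and was the lower member in every spNK library. Nckap1 rose 15.2-fold (3.93 ± 0.23 on the log2 scale, edgeR adjusted p = 2.51e-07). Nckap1l had -1.83 ± 0.12, and 0.11 with leukocyte scaling. The Nckap1l share was 37.7 ± 7.73% in tuNK and 97.1 ± 0.96% in spNK (SD, n = 4 each).

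**Figure D4:**
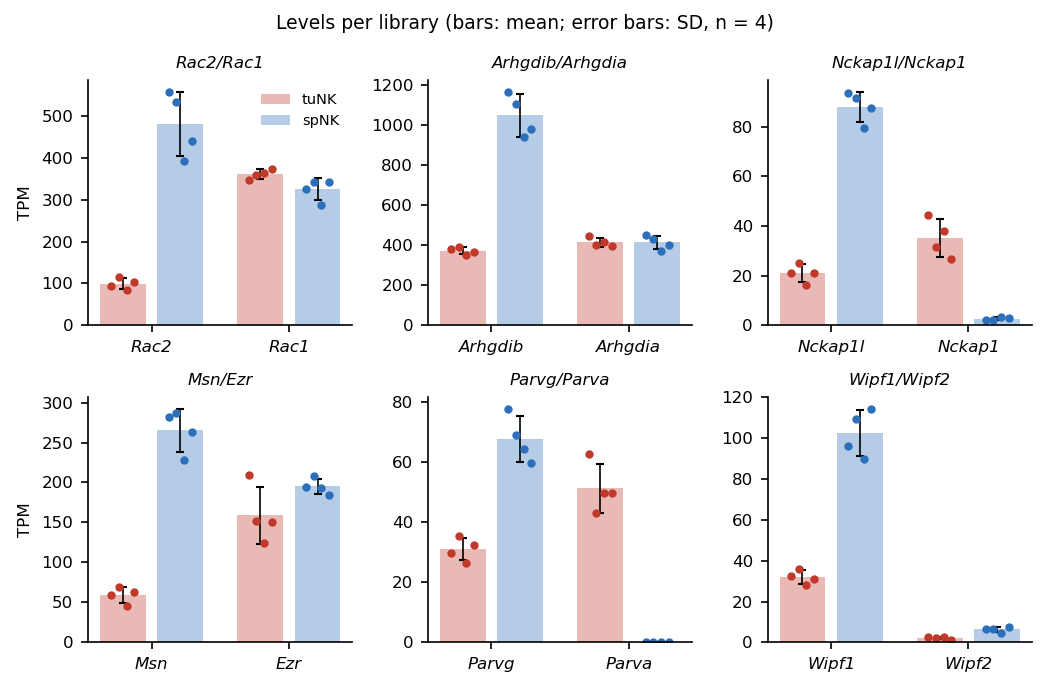
TPM per library (points), group mean (bars) and SD (error bars, n = 4) of both members in the 5 pairs whose order differs between groups and in Wipf1/Wipf2, tuNK in red left of spNK in blue. In the 5 pairs the broad member is the higher one in tuNK and the leukocyte member in spNK; Parva is at 0 in all 4 spNK libraries, and both Wipf genes are lower in tuNK, though both are higher with leukocyte scaling.

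The WASP pair fell less. WASP (Was), mutated in Wiskott-Aldrich syndrome, and its broad relative N-WASP (Wasl) open to activate Arp2/3. Was was at 29.7, 36.6, 26.8 and 29.4 TPM in tuNK, against 105, 113, 92.2 and 93.3 TPM in spNK. Wasl was at 7.37, 7.08, 5.56 and 6.66 TPM in tuNK, against 2.65, 2.46, 2.60 and 4.35 TPM in spNK. Neither gene overlapped between groups. Was had a log2 fold change of -1.47 ± 0.12 under TMM, and was called higher with leukocyte scaling (0.47). Was stayed the main member, with 82.1 ± 1.58% of the pair in tuNK and 97.1 ± 1.04% in spNK (SD, n = 4 each), and the log2 ratio fell by 2.87 ± 0.25 (SE).

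The partners of WASP were the exception. WIP (Wipf1) binds WASP and protects it from degradation, and WICH (Wipf2) is its broad relative. Wipf1 was at 32.6, 35.98, 28.0 and 31.2 TPM in tuNK, against 96.1, 109, 89.8 and 114 TPM in spNK. Wipf2 was at 2.54, 2.36, 2.56 and 1.30 TPM in tuNK, against 6.67, 6.71, 4.82 and 7.43 TPM in spNK. Both members were lower in every tuNK library. Their log2 fold changes were -1.39 ± 0.12 for Wipf1 and -1.30 ± 0.14 for Wipf2 under TMM, and 0.56 and 0.68 with leukocyte scaling. The log2 ratio differed by -0.14 ± 0.25 (exact permutation p = 0.6), and Wipf1 held 93.6 ± 1.87% of the pair in tuNK and 94.1 ± 0.59% in spNK (SD, n = 4 each). Wipf2 was the broad paralogue with the largest fall under TMM.

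HS1 (Hcls1) is the blood-cell relative of cortactin (Cttn), and both bind Arp2/3 and stabilise branches. Hcls1 was at 91.5, 90.2, 63.3 and 88.2 TPM in tuNK, against 324, 343, 258 and 290 TPM in spNK. Cttn was at 47.4, 29.5, 29.0 and 29.1 TPM in tuNK, against 1.19, 0.55, 3.13 and 1.06 TPM in spNK. Cttn was highest in tuNK library 1, which also had the highest mesenchymal marker sum, and among spNK libraries in library 3; their part in the result was not tested. Cttn had a log2 fold change of 4.82 ± 0.51, which became 5.52 without spNK library 3. Hcls1 had -1.64 ± 0.12, and 0.31 with leukocyte scaling. In the HS1 pair the log2 ratio fell by 6.51 ± 0.59 (a difference of -5.74 with 1 TPM added), and the Hcls1 share was 71.2 ± 4.78% in tuNK and 99.5 ± 0.46% in spNK (SD, n = 4 each).

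FMNL1 and FMNL2 are formins that elongate filaments at the cell edge. Fmnl1 was at 22.1 to 33.9 TPM in tuNK and 94.6 to 114 TPM in spNK, and Fmnl2 at 1.35 to 3.20 TPM in tuNK and 0.37 to 0.67 TPM in spNK, neither with overlap. Fmnl1 had a log2 fold change of -1.59 ± 0.14 under TMM, and was not called with leukocyte scaling (0.33). In spNK the Fmnl2 levels of 0.66, 0.38, 0.67 and 0.37 TPM did not follow its estimated counts of 31, 111, 115 and 54. Within the formin pair the log2 ratio fell by 3.86 ± 0.46 (a difference of -2.97 with 1 TPM added), while Fmnl1 still held 91.9 ± 3.66% of the pair in tuNK, against 99.5 ± 0.19% in spNK (SD, n = 4 each). EVL and VASP protect growing filament ends from capping. Evl was at 55.4, 63.5, 39.8 and 49.9 TPM in tuNK, against 137, 153, 106 and 139 TPM in spNK. Vasp was at 135, 113, 111 and 116 TPM in tuNK, against 256, 249.4, 197 and 209 TPM in spNK. Both fell under TMM (-1.10 ± 0.14 and -0.71 ± 0.09), and both rose with leukocyte scaling (0.84 and 1.27). Their log2 ratio overlapped between groups, with a difference of -0.43 ± 0.16 (exact permutation p = 0.0857). Without tuNK library 2 the groups were apart at -0.55 (exact permutation p = 0.0286).

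Among filament bundlers the plastins moved in opposite directions under TMM. L-plastin (Lcp1, chromosome 14, 75131101 to 75230842) crosslinks actin in blood cells and T-plastin (Pls3, chromosome X, 75785654 to 75875182) in solid tissues. Lcp1 was at 143, 137, 98.5 and 132 TPM in tuNK, against 362, 324, 278 and 291 TPM in spNK. Pls3 was at 51.7, 42.0, 47.1 and 44.8 TPM in tuNK, against 1.84, 1.73, 1.53 and 1.84 TPM in spNK. Pls3 was even across libraries within each group and rose 31.5-fold (4.98 ± 0.10 on the log2 scale, edgeR adjusted p = 3.52e-10). Lcp1 had -1.11 ± 0.12, and 0.83 with leukocyte scaling. Lcp1 kept 73.1 ± 3.84% of the pair in tuNK, against 99.4 ± 0.05% in spNK (SD, n = 4 each), and the log2 ratio fell by 5.97 ± 0.15 (SE).

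Coronin 1A (Coro1a), a regulator of actin turnover in leukocytes, had the highest mean TPM of all members in both groups. It was at 468, 545, 418 and 519 TPM in tuNK, against 1478, 1491, 1310 and 1350 TPM in spNK. In tuNK library 3 Rhoa was slightly higher than Coro1a, at 423 TPM. Coro1c was at 17.98 to 28.5 TPM in tuNK and 20.3 to 24.1 TPM in spNK, with overlap. Its call as higher (0.30 ± 0.10, edgeR adjusted p = 0.0201) was lost with library size alone (0.14), on log2 TPM (0.03), and without tuNK library 1 (0.22), tuNK library 2 (0.28), spNK library 2 (0.27) or spNK library 3 (0.25). The log2 ratio fell by 1.57 ± 0.15, and Coro1a still held 95.5 ± 0.86% of the pair in tuNK, against 98.5 ± 0.15% in spNK (SD, n = 4 each). Coro1a overlaps Bola2 on the opposite strand (up to 229 TPM), and the strand setting of the counting is not given, so reads of the overlap may be split between them. The same holds for Tln1 with Creb3 (up to 35.7 TPM) and Rhoa with Tcta (up to 20.3 TPM).

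Moesin and ezrin link actin to the membrane, and moesin is the main form in lymphocytes although other cells make it too. Msn was at 59.5, 69.0, 45.8 and 62.6 TPM in tuNK, against 282, 287, 229 and 263 TPM in spNK. Ezr was at 209, 152, 124 and 150 TPM in tuNK, against 194, 208, 193 and 185 TPM in spNK, where groups overlapped through tuNK library 1 alone. Ezr was not called under TMM (-0.12 ± 0.12, edgeR adjusted p = 0.415) and rose with leukocyte scaling (1.84). Msn had -1.92 ± 0.13, and 0.02 with leukocyte scaling. Moesin was the higher member in every spNK library and ezrin in every tuNK library, with Msn shares of 27.4 ± 3.94% in tuNK and 57.6 ± 2.33% in spNK (SD, n = 4 each). Ezr overlaps Sytl3 on the opposite strand (up to 121 TPM).

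Myosin 1F and 1E are long-tailed class I motors that tie actin to membranes. Myo1f was at 20.6, 22.0, 13.9 and 20.1 TPM in tuNK, against 107, 103, 79.7 and 85.4 TPM in spNK. Myo1e was at 7.64, 4.91, 4.19 and 5.77 TPM in tuNK, against 2.47, 2.82, 1.28 and 2.12 TPM in spNK. Neither overlapped. Their log2 ratio fell by 3.65 ± 0.21, and the Myo1f share was 77.3 ± 3.62% in tuNK and 97.8 ± 0.46% in spNK (SD, n = 4 each).

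The integrin pairs included the 2 largest falls in ratio, and their differences ran from -4.63 to -10.1 on the log2 scale. Gamma-parvin (Parvg, chromosome 15, 84324026 to 84342978) and alpha-parvin (Parva, chromosome 7, 112427505 to 112591692) join integrin-linked kinase to actin. Parva had 7537, 6606, 6781 and 6581 estimated counts in the tuNK libraries, against 0 in each of the 4 spNK libraries. In TPM this was 62.6, 43.0, 49.7 and 49.5 in tuNK, against 0 in all 4 spNK libraries. Taken against a floor of 3 counts per library (0.0631 CPM in spNK) beside 172 CPM in tuNK, Parva was at least 2732-fold higher. It passed the filter on low counts through tuNK alone. Parvg was at 29.7, 35.3, 26.5 and 32.5 TPM in tuNK, against 77.6, 68.8, 64.3 and 59.5 TPM in spNK, the smallest fall of a leukocyte member (-0.88 ± 0.12), and it rose with leukocyte scaling (1.06). The Parvg share was 37.9 ± 5.68% in tuNK, and Parvg was the sole member detected in spNK. The difference in log2 ratio depends on the amount added to TPM, at -10.1 with 0.1, -6.79 with 1 and -13.4 with 0.01, and was -11.7 on CPM.

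Kindlin-3 (Fermt3, chromosome 19, 6998958 to 7019469), which leukocytes and platelets need to activate integrins, and kindlin-2 (Fermt2, chromosome 14, 45458795 to 45530118) gave the next largest fall. Fermt3 was at 39.5, 43.8, 32.2 and 40.0 TPM in tuNK, against 143, 143, 145 and 146 TPM in spNK. Fermt2 was at 14.2, 10.9, 10.3 and 9.90 TPM in tuNK, against 0.08, 0, 0 and 0.17 TPM in spNK. Fermt2 was thus near the limit of detection in spNK and passed the filter through tuNK alone. Its log2 fold change was 8.79 ± 0.55, and 10.04 without spNK library 1. Fermt3 had -1.65 ± 0.10, and 0.29 with leukocyte scaling. The log2 ratio fell by 8.16 ± 0.37, and the difference was -5.40 with 1 TPM added, -10.2 with 0.01 TPM added and -9.38 on CPM. These are the genes whose upstream sequences differ most in CpG among the printed pairs, though Arhgdib and Arhgdia, not printed, differ more.

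Talins bind integrin tails and unfold under force, and talin 1 is also made outside blood cells. Tln1 was at 48.8, 36.6, 23.5 and 37.1 TPM in tuNK, against 82.9, 93.1, 72.4 and 74.7 TPM in spNK. Tln2 was at 1.89, 0.95, 0.81 and 1.14 TPM in tuNK, against 0, 0.03, 0.01 and 0.01 TPM in spNK. Neither overlapped, and Tln2 passed the filter through tuNK alone. Tln1 had -0.94 ± 0.16 and rose with leukocyte scaling (1.00). Tln1 remained the main talin, with 96.9 ± 0.51% of the pair in tuNK and 99.98 ± 0.01% in spNK (SD, n = 4 each). For the talins the log2 ratio fell by 4.63 ± 0.14, and the difference was -2.25 with 1 TPM added, -6.94 with 0.01 TPM added and -7.02 on CPM.

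The other genes of these pathways moved both ways, and their counts stand beside 35.6% higher and 34.0% lower over all genes under TMM, and 81.1% higher and 4.83% lower with leukocyte scaling. Of 34 other members of the paired families 28 were tested, of which 13 rose and 11 fell, with a median log2 fold change of -0.05 beside 0.02 for all genes tested; with leukocyte scaling 21 rose and 2 fell. Rhod, a small GTPase of endosomes, averaged 17.7 ± 2.37 TPM in tuNK and 0.67 ± 0.26 TPM in spNK (SD, n = 4 each), and the membrane motor Myo1c 56.1 ± 9.59 TPM in tuNK and 8.78 ± 0.69 TPM in spNK (SD, n = 4 each). Rac3, the remaining Rac, fell to 2.04 ± 1.24 TPM in tuNK, against 49.1 ± 5.20 TPM in spNK (SD, n = 4 each), also with leukocyte scaling (-2.33). Coro7, a coronin of the Golgi, fell by 1.78 under TMM and had 0.17 with leukocyte scaling.

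The Arp2/3 complex itself had 8 of 9 tested subunits lower and Arpc1a higher (0.77), with a median of -0.48, and all 9 were higher with leukocyte scaling, where 81.1% of all genes were. Actr2 (-1.09) and Arpc5 (-0.73) were among those that fell and turned to 0.88 and 1.24. Of 8 other WAVE subunits tested 3 rose and 4 fell, and 7 rose with leukocyte scaling. Among its scaffold genes, Cyfip1 averaged 29.4 ± 7.13 TPM in tuNK and 10.7 ± 1.20 TPM in spNK, and Cyfip2 15.4 ± 2.77 TPM in tuNK and 52.1 ± 2.46 TPM in spNK (SD, n = 4 each). Cyfip2 and the adaptor Abi1 fell by 1.53 and 0.88 under TMM and turned to 0.40 and 1.09 with leukocyte scaling.

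Of 18 other exchange factors for these GTPases tested 6 rose and 9 fell (14 rose and 1 fell with leukocyte scaling). The Rac activator Prex1 fell by 2.66, and by 0.70 with leukocyte scaling, and the Cdc42 activator Dock11 fell by 1.47 but turned to 0.48. Ect2, which drives cell division, rose by 1.69 on the log2 scale. Of 19 other integrin adaptors 5 rose and 11 fell (14 rose and 1 fell with leukocyte scaling). Bcar1 averaged 18.04 ± 2.23 TPM in tuNK and 0.03 ± 0.04 TPM in spNK, and the focal adhesion kinase Ptk2 12.9 ± 4.15 TPM in tuNK and 0.52 ± 0.21 TPM in spNK (SD, n = 4 each). Rasgrp2, which activates Rap1 in lymphocytes and platelets, fell to 10.3 ± 2.71 TPM in tuNK, against 235 ± 26.2 TPM in spNK (SD, n = 4 each), also with leukocyte scaling (-2.41). The platelet markers moved with it, at 4.29 to 5.47 TPM in tuNK and 417 to 734 TPM in spNK in sum, and their part was not tested. The Rap1 effector Apbb1ip fell by 2.21 and was not called with leukocyte scaling (-0.26).

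Of 25 genes of filament turnover and contraction 11 rose and 9 fell (24 rose and 1 fell with leukocyte scaling). The tropomyosins Tpm1 and Tpm2, which coat filaments, rose by 2.14 and 4.82 on the log2 scale. The capping protein Capzb and thymosin beta 4 (Tmsb4x), which binds actin monomers, fell by 0.91 and 1.47 and turned to 1.04 and 0.49 with leukocyte scaling. Over all genes 51.1% of calls were higher under TMM and 94.4% with leukocyte scaling, which raised the median of all genes by 1.96 on the log2 scale. Library size alone lowered that median by 0.17, and neither choice enters the ratios within pairs.

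Markers of other cells that could contribute either paralogue differed between the groups. Collagen gene Col1a2 averaged 357 TPM in tuNK and 0.52 TPM in spNK. Epithelial markers summed to 31.3 to 41.9 TPM in tuNK, mostly from Krt18, against 1.05 to 5.03 TPM in spNK. Lists of other blood cells had higher sums in spNK. The macrophage list summed to 2.09 to 5.64 TPM in tuNK and 38.2 to 254 TPM in spNK, mostly from Lyz2 (mean 1.84 TPM in tuNK and 99.6 TPM in spNK). Of its 5 genes tested 2 were lower in tuNK, Mrc1 was higher, and C1qa and C1qb were not called. The B cell list summed to 15.2 to 24.8 TPM in tuNK and 217 to 1072 TPM in spNK, mostly from Ighm (mean 19.5 TPM in tuNK and 647 TPM in spNK). Neutrophil markers summed to 0.21 to 1.93 TPM in tuNK and 52.1 to 204 TPM in spNK, with Ly6g at 0 in all 8 libraries. Erythroid markers summed to 1.10 to 4.49 TPM in tuNK and 337 to 1506 TPM in spNK. The part of all these cells in the pair ratios was not tested.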

How the data were processed

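RNA from 4 tuNK and 4 spNK samples was sequenced after selection of polyadenylated RNA. Per the submitters' processing notes, reads were handled with FastQC 0.11.9, STAR and Salmon on GRCm38. Versions of the other tools, the gene models and the strandedness of the counting were not given in the sources used here. Estimated counts per gene in the deposited table, which the authors made with Salmon per the submitters' processing notes, were not normalised and were rounded to whole numbers. A second deposited table holds the authors' TPM, which is scaled for transcript length and sums to the same total in each library.

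Genes were filtered with filterByExpr (a minimum of 0.233 CPM), which kept 14006 genes and all 36 members, of which 32 were over the minimum in all spNK libraries. Groups were compared with the edgeR 4.0.16 quasi-likelihood test (R 4.3.3, TMM scaling, robust settings), with Benjamini-Hochberg adjustment over all genes tested and a threshold of 0.05. Within-pair ratios used TPM with 0.1 added and an exact permutation test (two-sided, 70 assignments). Libraries of a group varied with a common dispersion of 0.071 (coefficient of variation 0.266), at totals of 38745733 to 53886933. Floors of 3 counts cover counting error only. Alternatives were other scalings (DESeq2 1.42.0 size factors, library size, upper quartile, and the geometric mean of 26 genes expressed across leukocytes), other filters, DESeq2, limma 3.58.1, other amounts added to TPM, and libraries left out. All members were named; from each pathway list up to 2 genes called higher and 2 called lower with the smallest adjusted p and at least 10 TPM in the higher group were named. The members and lists were chosen with earlier results of these data known.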

Additional observations from a re-analysis of the deposited data

Results flagged for a closer look

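Each group of 4 libraries was searched for a library far from the other 3, over the TPM of the 36 members and the log2 ratios of the 18 pairs. Of 108 groups 7 held one, where chance alone gives about 1 in 20. In tuNK library 3, Rhoh was at 7.70 TPM, above the others at 5.50 to 5.62 TPM, and Hcls1 at 63.3 TPM, below the others at 88.2 to 91.5 TPM. In tuNK library 1, Cttn was at 47.4 TPM, above the others at 29.0 to 29.5 TPM, and the Coro1a/Coro1c log2 ratio was 4.03, below the others at 4.53 to 4.604. In tuNK library 4, Wipf2 was at 1.30 TPM, below the others at 2.36 to 2.56 TPM. In spNK library 4, Wasl was at 4.35 TPM, above the others at 2.46 to 2.65 TPM, and the Rhoh/Rhoa log2 ratio was -3.70, above the others at -4.14 to -4.08. In estimated counts tuNK had 486, 444, 421 and 393 for Wipf2 and 429, 566, 475 and 517 for Rhoh. Neither of these TPM values thus stood apart in its counts. What set the other values apart was not tested.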

How the results depend on the processing

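With scaling to 26 leukocyte genes 11355 genes were higher and 676 lower in tuNK, against 4983 and 4761 under TMM, and 0 leukocyte paralogues were lower. It turned these falls or near-zero values into log2 fold changes of 0.67 (Arhgdib), 0.18 (Elmo1), 0.47 (Was), 0.56 (Wipf1), 0.11 (Nckap1l), 0.31 (Hcls1), 0.33 (Fmnl1), 0.84 (Evl), 0.83 (Lcp1), 0.66 (Coro1a), 0.019 (Msn), 0.29 (Fermt3), 1.06 (Parvg), 1.00 (Tln1), 1.93 (Rhoa), 1.47 (Elmo2), 0.68 (Wipf2), 1.27 (Vasp), 1.84 (Ezr), 0.17 (Coro7), 0.88 (Actr2), 1.24 (Arpc5), 0.40 (Cyfip2), 1.09 (Abi1), 0.48 (Dock11), 1.04 (Capzb) and 0.49 (Tmsb4x). The construction of that scaling, which holds leukocyte genes level, shifts all genes alike. Within-pair ratios do not use it. The 16 pairs apart were 16 with 1 or 0.01 TPM added, with CPM and without spNK library 3 and tuNK library 1, and 16 to 17 with 1 library left out. Over all pairs of genes 62.8% did not overlap in the main setting and 71.0% without spNK library 3 and tuNK library 1. The share was thus higher with fewer libraries, and it was not computed for the other settings. The Wipf1/Wipf2 difference in log2 ratio was -0.35 to 0.00871 with 1 library left out, positive without tuNK library 3, and 0.00028 without spNK library 3 and tuNK library 1.

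The replicate numbers were used only as names of libraries, and the labels do not say whether same-numbered libraries share a mouse. Deviations of same-numbered libraries correlated at -0.01 to 0.04, all under 0.1, which cannot decide that question. Among spNK libraries the same-numbered one correlated best with tuNK libraries 2, 3 and 4, and library 3 with tuNK library 1. All these values were near 0, and tuNK library 2 with spNK library 1 reached 0.035, so this order cannot show a pairing. With a replicate block in edgeR 9555 of 14006 genes were called, 4926 higher and 4629 lower. Of the members 18 leukocyte paralogues fell, 13 broad paralogues rose and 3 fell. In 17 pairs all 4 differences between same-numbered libraries had 1 sign, a looser rule than no overlap. The share of all pairs of genes that meet this rule was not computed. The broad paralogues called higher were 11 to 13 with 1 library left out, 11 with library size alone and 10 on log2 TPM. Of all 14006 genes 4329 were higher with library size alone and 3978 or 4013 on log2 TPM, against 4983 under TMM. With 1 library left out 4754 to 5156 genes were higher, of 14381 to 14510 tested. On log2(TPM + 1) the rises of Dock1 and Fermt2 shrank to 1.80 and 3.53, since the amount added exceeds their spNK level. Low counts in spNK limit Dock1, Fermt2, Parva and Tln2, whose fold changes are set by a few counts or none.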
